A study of Rattus norvegicus with 144 samples.

Results

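The 10 genes described here make fatty acids from citrate, then lengthen and desaturate them: Acly, Acaca, Fasn and Me1 supply and build palmitate, Scd, Fads1 and Fads2 are desaturases, Elovl5 and Elovl6 are elongases, and Srebf1 encodes a transcription factor of the pathway. They were taken as all probe sets whose array annotation carried one of these symbols. All 10 genes were found, as 16 of 31042 probe sets in the larger of the deposited tables and 15 of 15866 in the smaller, where 1 of the Elovl6 probe sets was not analysed. Acaca, Fasn, Me1, Elovl5, Elovl6 and Srebf1 had 2 probe sets each in the larger table, and probe sets of 1 gene are not independent.

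Male Sprague Dawley rats aged 8 to 10 weeks were given AMG B or AMG A orally every day. These are compounds known here by code names only, whose pharmacology the design text describes as antiangiogenic. The larger table held 36 liver and 36 adrenal gland arrays from animals given 0, 3 or 60 mg/kg AMG B for 1, 4 or 14 days, 12 pancreas arrays for AMG B on day 14, and 12 adrenal and 12 pancreas arrays from animals given 0, 3 or 30 mg/kg AMG A for 14 days. The smaller table held 36 liver arrays from animals given 0, 3 or 30 mg/kg AMG A for 1, 4 or 14 days. The 144 arrays came from 72 animals and formed 36 groups of 4, and animals at 0 mg/kg of the same study and day served as controls. The titles of the day 14 adrenal and pancreas controls name no compound, and these arrays were put in a study through the animal numbers they share with liver controls whose titles do. Every value is a score: a probe set's signal after it had been centred near 0 and scaled to an SD near 1 over the deposited arrays, so that a difference is in SD of that probe set, is not a fold change and has no size to compare between genes. Medians over several probe sets, and differences called wide, are descriptions in these units only.

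ATP citrate lyase (Acly) releases cytosolic acetyl-CoA from citrate, acetyl-CoA carboxylase 1 (Acaca) turns it into malonyl-CoA, fatty acid synthase (Fasn) joins these units to palmitate, and malic enzyme 1 (Me1) supplies part of the NADPH. Stearoyl-CoA desaturase (Scd) makes monounsaturated fatty acids, Elovl6 lengthens palmitate, and Fads2, Elovl5 and Fads1 carry dietary linoleic and alpha-linolenic acid through to the polyunsaturated fatty acids of membranes, Fads2 by the delta-6 and Fads1 by the delta-5 step. SREBP-1c, one product of Srebf1, is known to raise transcription of most of these genes in liver in response to insulin, and the related SREBP-2 acts mainly on the genes of cholesterol synthesis.

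Promoter windows are shown for 4 of the genes with a difference past the threshold below: Fads1, Fads2 and Elovl5 (on 1 of its 2 probe sets), which were lower together in liver, and Acly, which was higher in the adrenal gland. Each window runs from 250 bases before to 50 bases after the annotated transcript start (RefSeq, GRCr8), is written 5′ to 3′ on the gene's own strand, and has in capitals every match, on either strand, to the CCAAT box (CCAAT), the GC box (GGGCGG), the E-box (CACGTG) or the sterol regulatory element core (TCACNCCAC).
Fads1, chr1:216252442-216252741, plus strand: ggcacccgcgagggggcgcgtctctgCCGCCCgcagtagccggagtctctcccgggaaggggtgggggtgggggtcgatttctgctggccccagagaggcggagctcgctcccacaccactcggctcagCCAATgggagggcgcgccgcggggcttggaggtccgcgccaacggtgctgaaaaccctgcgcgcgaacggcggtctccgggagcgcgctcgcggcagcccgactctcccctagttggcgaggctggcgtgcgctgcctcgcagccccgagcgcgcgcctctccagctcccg
Fads2, chr1:216171984-216172283, minus strand: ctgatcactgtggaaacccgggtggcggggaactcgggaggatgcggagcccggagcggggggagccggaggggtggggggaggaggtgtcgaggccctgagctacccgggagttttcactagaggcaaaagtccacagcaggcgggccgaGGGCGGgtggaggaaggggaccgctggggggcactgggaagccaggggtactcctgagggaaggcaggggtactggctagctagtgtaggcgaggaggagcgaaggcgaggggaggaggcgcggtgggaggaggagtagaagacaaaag
Elovl5, chr8:87670914-87671213, plus strand: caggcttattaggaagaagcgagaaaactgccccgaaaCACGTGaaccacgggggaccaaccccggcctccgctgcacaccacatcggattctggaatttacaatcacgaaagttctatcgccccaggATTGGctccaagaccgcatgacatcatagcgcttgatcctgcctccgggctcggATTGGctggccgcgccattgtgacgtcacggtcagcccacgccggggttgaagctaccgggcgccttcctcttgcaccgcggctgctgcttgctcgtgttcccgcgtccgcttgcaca
Acly, chr10:85963582-85963881, minus strand: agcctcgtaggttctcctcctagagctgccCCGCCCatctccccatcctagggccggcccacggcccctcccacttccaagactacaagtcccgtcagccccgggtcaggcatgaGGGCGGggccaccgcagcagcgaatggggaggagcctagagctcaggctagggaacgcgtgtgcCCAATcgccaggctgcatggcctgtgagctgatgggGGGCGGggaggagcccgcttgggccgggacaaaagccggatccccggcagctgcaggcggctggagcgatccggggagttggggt
The Fads1 window held 1 CCAAT box and 1 GC box, the Fads2 window 1 GC box, the Elovl5 window 2 CCAAT boxes and 1 E-box (a palindrome, which matches both strands), and the Acly window 1 CCAAT box and 3 GC boxes. No matches overlapped each other in these 4 windows. Among 33469 rat promoter windows of the same length, 37.5% held a CCAAT box, 33.1% a GC box, 6.42% an E-box and 1.12% the sterol element core. Of 8 windows of the member genes (Srebf1 had 2, and Acaca, Fasn and Elovl6 are named only), 5 held a CCAAT box, 6 a GC box, 1 an E-box and 0 the sterol element core, which says only that these letters were not in these windows.

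The tissue labels fitted the markers of hepatocytes, adrenal cortex and pancreatic acinar cells. The mean score of 9 hepatocyte probe sets was 0.477 to 1.29 on liver arrays of the larger table and at most -0.867 elsewhere, that of 8 adrenal cortex probe sets 1.08 to 1.93 on adrenal arrays and at most -0.637 elsewhere, and that of 9 pancreatic acinar probe sets 1.54 to 3.12 on pancreas arrays and at most -0.412 elsewhere. The scores behaved as values on a linear rather than a log scale, since the acinar probe sets varied by an SD of at most 0.0401 among liver arrays and at least 0.387 among pancreas arrays. All tests of a difference are limma's moderated test with Benjamini-Hochberg adjustment over all probe sets of the table, and a gene is said to rise or fall only where the adjusted p was under 0.05. The 4 animals of a group are the replicates, and in these tissue extracts fewer cells of a type and less RNA per cell cannot be told apart.

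Across the 24 comparisons of a dose with its controls, 7 member differences passed the threshold, all of them after 14 days of 60 mg/kg AMG B, where 5.66% of all probe sets passed in liver, 5.96% in the adrenal gland and 9.88% in pancreas. In liver Fads1, Fads2 and 1 of 2 Elovl5 probe sets fell. In the adrenal gland Acly rose and Fads2 fell, and in pancreas Scd and 1 of 2 Fasn probe sets rose. In the other 21 comparisons 0 member probe sets passed with limma, where 0% to 0.889% of all probe sets did. Between 0 and 6 of the members had an unadjusted p under 0.05, where 3.47% to 12.6% of all probe sets did. The 6 of 16 were in liver at 60 mg/kg AMG B on day 4, beside 12.1% of all probe sets. The doses of 1 study and day share their controls.

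**Figure D1:**
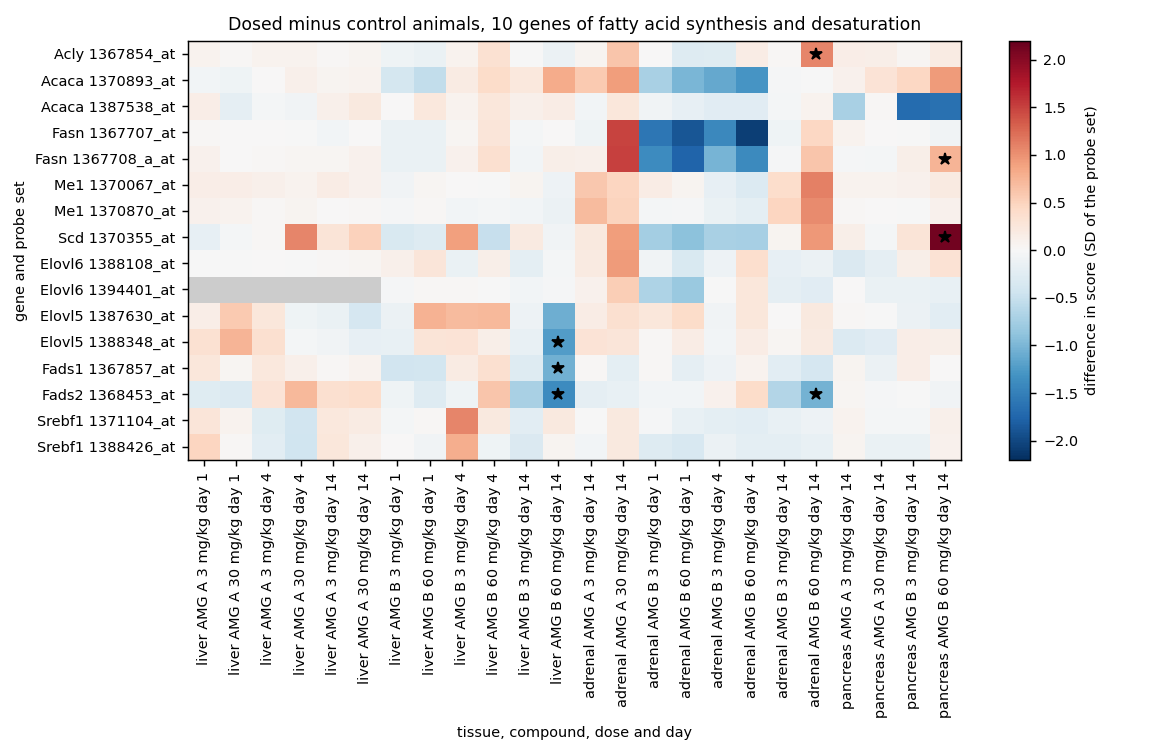
Difference in score (SD units of the probe set) between dosed and control animals for each member probe set (rows) in each of the 24 dose comparisons (columns); a star marks an adjusted p under 0.05 and grey a probe set that the smaller table lacks. The 7 stars lie in the columns for 60 mg/kg AMG B on day 14.

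In liver after 14 days of 60 mg/kg AMG B, both desaturases of polyunsaturated fatty acid synthesis and a probe set of the elongase Elovl5 fell, while no gene of palmitate synthesis passed the threshold. Fads1 had scores of -0.97, -1.12, -1.03 and -1.32 in dosed livers, against 0.01, -0.22, 0.13 and -0.09 in control livers. Fads2 had -1.17, -0.73, -0.91 and -0.86 in dosed livers, against 0.81, 0.89, -0.20 and 0.34 in control livers. The Elovl5 probe set 1388348_at had -0.25, -0.50, -1.51 and 0.03 in dosed livers, against 0.99, 0.63, 0.59 and 0.45 in control livers. For these 3 probe sets every dosed animal lay below every control, and the lowest Elovl5 score belonged to animal 35.

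The difference was -1.06 for Fads1 (SE 0.218, limma adjusted p = 0.0035), whose means were -1.11 ± 0.152 in dosed and -0.0436 ± 0.150 in control livers (SD, n = 4 each). For Fads2 it was -1.38 (SE 0.288, limma adjusted p = 0.0042), with means of -0.919 ± 0.184 in dosed and 0.459 ± 0.502 in control livers (SD, n = 4 each). For Elovl5 it was -1.22 (SE 0.242, limma adjusted p = 0.0026), with means of -0.559 ± 0.671 in dosed and 0.665 ± 0.232 in control livers (SD, n = 4 each). These were 3 of 16 member probe sets, beside 5.66% of all probe sets called in either direction. The median difference over the 16 was -0.0633, and over all probe sets 0.0121. With only the 8 compared arrays fitted, Fads1 still passed, but Fads2 (adjusted p = 0.0743) and Elovl5 (adjusted p = 0.177) did not.

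The other Elovl5 probe set, 1387630_at, had -0.03, -0.32, -1.32 and 0.61 in dosed livers, against 1.21, 0.81, 0.65 and 0.55 in control livers. Its groups overlapped, animal 35 was again lowest, and its difference of -1.07 (SE 0.331) missed the threshold (limma adjusted p = 0.053). The sign of the difference was the same on both Elovl5 probe sets.

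At lower dose and earlier days these 3 genes did not pass, nor did another member. The share of all probe sets called with limma was 0.00966% and 0.0548% at 3 and 60 mg/kg on day 1, 0.0226% and 0.68% on day 4 and 0% at 3 mg/kg on day 14. On day 14 the means at 0, 3 and 60 mg/kg were -0.0436 ± 0.150, -0.320 ± 0.198 and -1.11 ± 0.152 for Fads1, and 0.459 ± 0.502, -0.254 ± 0.259 and -0.919 ± 0.184 for Fads2 (SD, n = 4 each). For Elovl5 1388348_at they were 0.665 ± 0.232, 0.502 ± 0.398 and -0.559 ± 0.671. The means thus descended with dose for these 3 probe sets. Compared with 3 mg/kg, 60 mg/kg gave lower Fads1 (-0.787, SE 0.218, limma adjusted p = 0.037) and lower Elovl5 1388348_at (-1.06, SE 0.242, limma adjusted p = 0.012), where 3.79% of all probe sets were called. The call for Fads1 against 3 mg/kg ended when animal 29, 30, 31, 34, 35 or 36 was left out, and that for Elovl5 when 29 or 35 was.

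On day 4 at 60 mg/kg Fads1 averaged 0.584 ± 0.479 in dosed and 0.231 ± 0.437 in control livers (SD, n = 4 each). Fads2 averaged 0.972 ± 0.798 in dosed and 0.357 ± 0.353 in control livers on that day. Both dosed means lay above the controls, without passing the test. The dose effect on day 14 minus that on day 1 was -1.51 for Elovl5 1388348_at (SE 0.343, limma adjusted p = 0.059), -1.09 for Fads2 and -0.655 for Fads1 (0.193% of all probe sets called), and none of these passed, so the day 14 effects are not shown to differ from those of day 1.

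**Figure D2:**
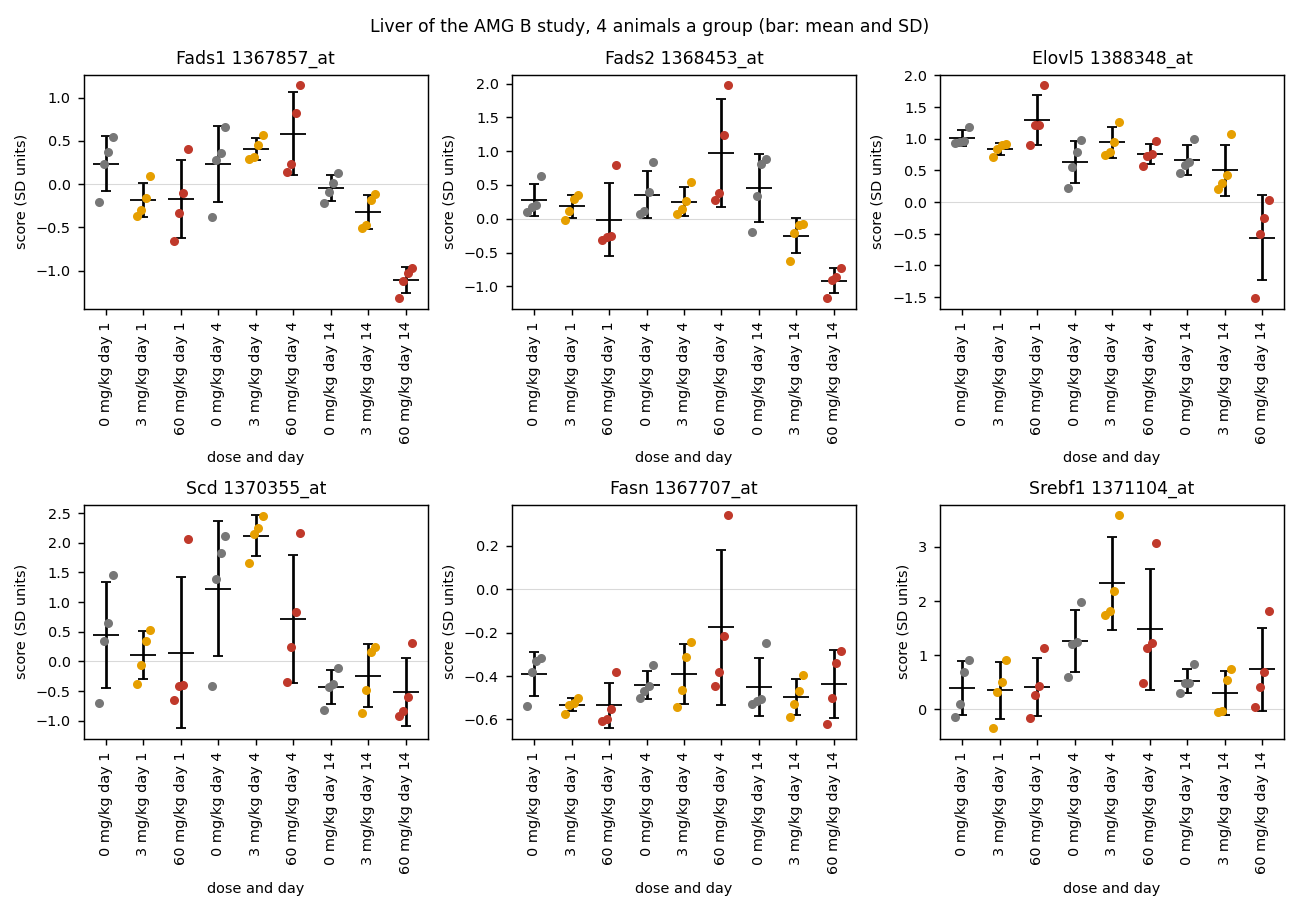
Scores (SD units) of 6 member probe sets in each liver of the AMG B study, by dose and day, with 4 animals a group; bars give the mean and SD. The 4 animals at 60 mg/kg on day 14 lie below all day 14 controls for Fads1, Fads2 and Elovl5 1388348_at, and overlap them for Scd, Fasn and Srebf1.

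None of the genes that make palmitate passed in the same livers. Acly differed by -0.125 (SE 0.115, limma adjusted p = 0.61), and the Fasn probe sets by 0.0129 and 0.137. Scd had -0.60, 0.32, -0.93 and -0.83 in dosed livers, against -0.38, -0.44, -0.81 and -0.10 in control livers, so the groups overlapped. Acaca 1370893_at had 0.40, 0.90, 1.19 and 0.40 in dosed livers, against -0.04, -0.18, 0.39 and -0.52 in control livers, without overlap. Its difference of 0.810 (SE 0.305) did not pass (limma adjusted p = 0.12), and the other Acaca probe set differed by 0.162 (SE 0.113). Srebf1 differed by 0.214 and 0.0662, Elovl6 by -0.0476 and -0.0241 and Me1 by -0.109 and -0.134 on their probe sets, none past the threshold. Groups did not overlap for 4 of 16 member probe sets, beside 9.79% of all probe sets.

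Scd and Srebf1 varied widely between animals of 1 group in liver. On day 4 Scd had 2.17, -0.35, 0.83 and 0.25 at 60 mg/kg, against 1.39, -0.42, 2.12 and 1.82 in controls. Srebf1 1371104_at had 3.58, 2.18, 1.81 and 1.74 at 3 mg/kg on day 4, against 1.99, 0.59, 1.24 and 1.21 in controls, a difference of 1.07, SE 0.457, limma adjusted p = 0.82. In both comparisons the groups overlapped. Group means of Scd over the 9 liver groups of the AMG B study ran from -0.512 ± 0.569 (60 mg/kg, day 14) to 2.12 ± 0.338 (3 mg/kg, day 4; SD, n = 4 each).

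Of 116 probe sets in 5 lists of genes around the pathway, 6 passed in these livers (5.17%), a share near the 5.66% of all probe sets. Among 31 probe sets of regulators, 2 rose and 0 fell on day 14 at 60 mg/kg. They were 2 of the 3 of Prkaa1, a catalytic subunit of the AMP-activated kinase that phosphorylates acetyl-CoA carboxylase (0.586, SE 0.152, limma adjusted p = 0.021, and 0.510, SE 0.129, limma adjusted p = 0.017). Among 15 probe sets of carbon and NADPH supply 2 rose: Slc13a5, a plasma membrane citrate carrier, with means of 4.01 in dosed and 0.0995 in control livers (limma adjusted p = 0.00063), and the mitochondrial isocitrate dehydrogenase Idh2 (0.721, limma adjusted p = 0.00020). Of 21 probe sets of other elongation and desaturation genes 1 rose, that of the electron donor Cyb5a (0.693, limma adjusted p = 0.0021), and 1 fell, that of the elongase Elovl1 (-0.481, limma adjusted p = 0.017). Of 36 probe sets of acyl-CoA activation and esterification 0 passed with limma (lowest adjusted p = 0.0525, 4 at an unadjusted p under 0.05). Of 13 probe sets of sterol genes (sterol synthesis genes and Stard4) 0 passed on day 14 with limma (1 at an unadjusted p under 0.05, median -0.104). On day 4, 5 of the 13 rose, among them 1 of Lss, which makes lanosterol (1.05, SE 0.196, limma adjusted p = 0.0063), where 0.68% of all probe sets were called.

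Markers of other liver cells fell beside the member genes on day 14: 5 of 7 macrophage probe sets (median -1.56), 7 of 10 endothelial probe sets (median -1.19) and 2 of 5 red cell probe sets (median -1.51). Of 9 hepatocyte probe sets 0 passed with limma (4 at an unadjusted p under 0.05, median 0.203), and of 11 fat cell probe sets 1 fell. The part of these cells in the member values was not tested.

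In liver of the AMG A study 0 members passed with limma at 3 or 30 mg/kg on any day. The share of all probe sets called there was 0.0378% and 0.366% at 3 and 30 mg/kg on day 1, 0.0126% and 0.0693% on day 4 and 0.0063% and 0.353% on day 14. Scd had 0.67, 1.71, 1.81 and 0.54 at 30 mg/kg on day 4, against 0.00, -0.04, -0.30 and 0.79 in controls, a difference of 1.07, SE 0.358, limma adjusted p = 0.28, with overlapping groups. Elovl5 1388348_at had 1.79, 0.96, 1.09 and 1.28 at 30 mg/kg on day 1, against 0.25, 0.89, 0.10 and 0.91 in controls, a difference of 0.740, SE 0.349, limma adjusted p = 0.41, without overlap (1 of 15 member probe sets, beside 6.78% of all). On day 14 at 30 mg/kg Fads1 differed by 0.0811 (SE 0.169), Fads2 by 0.385 (SE 0.397) and Elovl5 1388348_at by -0.179 (SE 0.349). The livers of the 2 studies lie in different tables and their high doses differ, so these values stand beside those of AMG B and were not compared with them.

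In the adrenal gland after 14 days of 60 mg/kg AMG B, Acly rose while Fads2 fell. Acly had 1.32, 2.52, 1.29 and 2.33 in dosed glands, against 0.91, 0.77, 0.82 and 0.67 in control glands. Fads2 had 0.09, 0.51, -0.55 and 0.57 in dosed glands, against 1.97, 0.62, 1.14 and 1.04 in control glands. Neither gene's groups overlapped, though for Fads2 the highest dosed gland lay close to the lowest control. With Scd, 3 of 16 member probe sets did not overlap between groups, beside 10.3% of all probe sets.

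The difference for Acly was 1.07 (SE 0.238, limma adjusted p = 0.0038), with means of 1.87 ± 0.649 in dosed and 0.796 ± 0.101 in control glands (SD, n = 4 each). For Fads2 it was -1.04 (SE 0.302, limma adjusted p = 0.031), with means of 0.157 ± 0.517 in dosed and 1.20 ± 0.565 in control glands (SD, n = 4 each). These were 2 of 16 member probe sets, beside 5.96% of all probe sets called in either direction. At 3 mg/kg the means were 0.817 ± 0.301 for Acly and 0.559 ± 0.633 for Fads2, and Acly at 60 mg/kg also exceeded 3 mg/kg (1.05, SE 0.238, limma adjusted p = 0.0056; 4.5% of all probe sets called). The Fads2 call ended when any of animals 25, 27, 28, 33 and 35 was left out (highest adjusted p = 0.174). Acly held in all 8 such fits, and fitting only the 8 compared arrays ended both calls (adjusted p = 0.182 for Acly and 0.241 for Fads2).

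The effect of 60 mg/kg on Acly was -0.277 on day 1, 0.155 on day 4 and 1.07 on day 14. The day 14 effect exceeded that of day 1 by 1.35 (SE 0.337, limma adjusted p = 0.034; 1.16% of all probe sets called), a call that ended when any of animals 3, 4, 11, 12, 25, 26, 28, 34 and 36 was left out. Me1, the NADPH supplier, had 2.37, 2.23, 1.54 and 2.69 in dosed glands on day 14 (probe set 1370067_at), against 0.99, 1.30, 0.05 and 2.03 in control glands, and its difference did not pass (1.12, SE 0.470, limma adjusted p = 0.17). The other Me1 probe set, 1370870_at, differed by 1.04 and did not pass either. Scd averaged 0.229 ± 0.285 in dosed and -0.731 ± 0.118 in control glands (SD, n = 4 each), without overlap and without passing (limma adjusted p = 0.18). Fasn, Acaca, Elovl5, Elovl6, Fads1 and Srebf1 differed by between -0.363 and 0.615, none past the threshold.

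Of the 116 probe sets in the same 5 lists 21 passed in these glands (18.1%, beside 5.96% of all probe sets), and 11 of the 21 were of the sterol genes (sterol synthesis genes and Stard4). Of 13 probe sets 11 rose and 0 fell (7 of 8 genes, median 2.89, beside 0.000867 over all probe sets), including Fdps, which makes farnesyl diphosphate (3.84, SE 0.498, limma adjusted p = 3.3e-06), and Sqle, squalene epoxidase (3.17, SE 0.474, limma adjusted p = 3.2e-05). Of 15 carbon supply probe sets 2 rose, those of the cytosolic acetyl-CoA synthetase Acss2 (2.55, limma adjusted p = 3.6e-05) and of Slc25a1, which exports from mitochondria the citrate that Acly cleaves (1.50, limma adjusted p = 0.0019). In the same list the mitochondrial malic enzyme Me3 (-1.81, limma adjusted p = 0.0046) and the pyruvate carrier subunit Mpc2 (-0.748, limma adjusted p = 0.041) fell. Of 21 other elongation and desaturation probe sets 3 rose, 1 of the desaturase relative Fads3 (1.32, limma adjusted p = 0.0062) and 2 of the dehydratase Hacd1, and 1 fell, that of the electron donor Cyb5r3 (-0.776, limma adjusted p = 0.0015). Of 31 regulator probe sets 0 rose and 2 fell. These were 1 of 2 of the transcription factor Usf1 (-1.30, limma adjusted p = 0.045) and that of the SREBP protease Mbtps1 (-0.542, limma adjusted p = 0.026). Srebf1 itself differed by -0.114 and -0.157, without passing. Of 36 activation and esterification probe sets 0 passed with limma (5 at an unadjusted p under 0.05), while 4 of 10 endothelial and 4 of 7 macrophage probe sets fell. Of 8 adrenal cortex probe sets 1 rose, and of 7 adrenal medulla and 11 fat cell probe sets 0 passed with limma (0 and 1 at an unadjusted p under 0.05). The part of these cells in the member values was not tested.

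**Figure D3:**
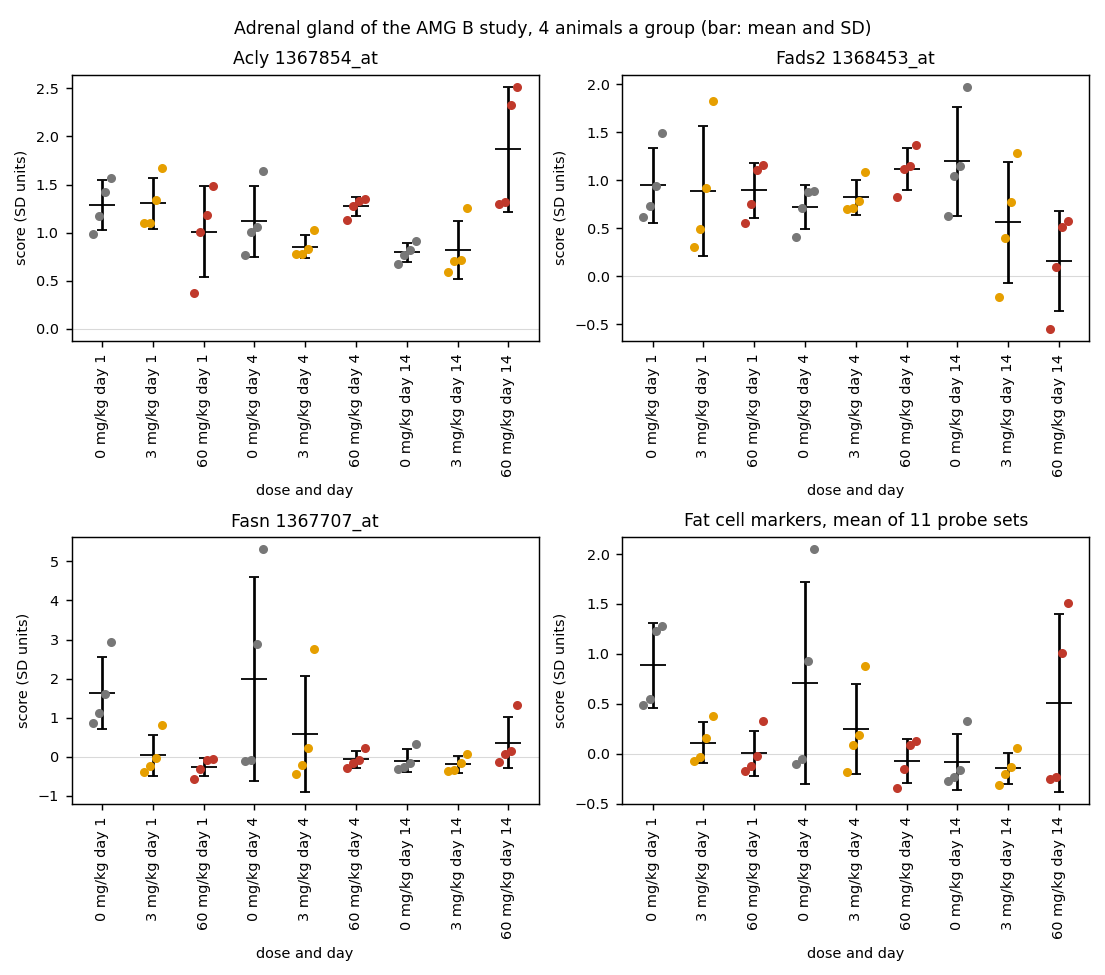
Scores (SD units) of Acly, Fads2 and Fasn 1367707_at, and the mean score of 11 fat cell marker probe sets, in each adrenal gland of the AMG B study, by dose and day, with 4 animals a group; bars give the mean and SD. The 4 Acly scores at 60 mg/kg on day 14 lie above the controls of that day, and Fasn and the fat cell markers are both high in the day 1 controls and in some day 4 controls.

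With limma 0 members passed in the adrenal gland at the other doses and days of AMG B, where the share of all probe sets called was 0.00644% and 0.335% at 3 and 60 mg/kg on day 1, 0.0354% and 0.889% on day 4 and 0.00322% at 3 mg/kg on day 14. Fasn gave wide differences on days 1 and 4 of the AMG B study, lower in dosed glands and none past the threshold. Fasn 1367707_at had -0.06, -0.09, -0.57 and -0.30 at 60 mg/kg on day 1, against 1.13, 1.60, 0.85 and 2.93 in controls. On day 4 it had -0.07, -0.16, 0.24 and -0.28 at 60 mg/kg, against -0.11, 2.88, -0.08 and 5.30 in controls. On day 1 the groups did not overlap, and on day 4 only 2 control glands stood above the dosed ones. The differences were -1.88 (SE 0.827, limma adjusted p = 0.47) on day 1 and -2.07 (SE 0.827, limma adjusted p = 0.29) on day 4. On day 1, 6 of 16 member probe sets did not overlap between groups, beside 6.53% of all probe sets.

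Fat cell markers moved with these values. Their mean over 11 probe sets ran from -0.174 to 0.330 at 60 mg/kg on day 1, against 0.486 to 1.27 in controls, and from -0.340 to 0.125 at 60 mg/kg on day 4, against -0.0997 to 2.05 in controls. With limma 0 of the 11 passed on either day (5 and 3 at an unadjusted p under 0.05, medians -0.609 and -0.737). After group means were taken away, Fasn followed the fat cell marker mean over the 48 adrenal arrays (Pearson r = 0.824 and 0.812 for its probe sets, Spearman rho = 0.795 and 0.765, permutation adjusted p = 0.00021 for each r and 0.00016 for each rho). So did Scd (r = 0.709, rho = 0.617, permutation adjusted p = 0.001 and 0.0033), both Acaca probe sets (r = 0.813 and 0.609) and Srebf1 1388426_at (r = 0.705). In all, 6 of 16 probe sets passed by both measures, with p adjusted over 32 relations in adrenal gland and pancreas, and Srebf1 1371104_at passed by Pearson's r alone (r = 0.458, permutation adjusted p = 0.048 and, for rho, 0.093). An r of at least 0.609, the lowest of the 6, was found for 0.674% of the 31031 probe sets other than the markers. Acly (r = 0.0186), Fads1 (r = -0.0579), Fads2 (r = -0.151), Me1, Elovl5 and Elovl6 did not pass by either.

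Within the 12 arrays of the AMG A study r was 0.901 for Fasn 1367707_at and 0.897 for Scd, and within the 36 of the AMG B study 0.782 and 0.602. Without the 2 arrays farthest from the median of the marker mean, r was 0.843 for Fasn and 0.743 for Scd. At 60 mg/kg on day 14 the marker mean was -0.230, 1.01, 1.51 and -0.251 in animals 33 to 36, against -0.273 to 0.328 in controls. The highest Acly scores, of animals 34 and 36, thus fell on 1 gland with high and 1 with low fat markers. The part of fat tissue in the adrenal values of Fasn, Acaca, Scd and Srebf1 was not tested.

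**Figure D4:**
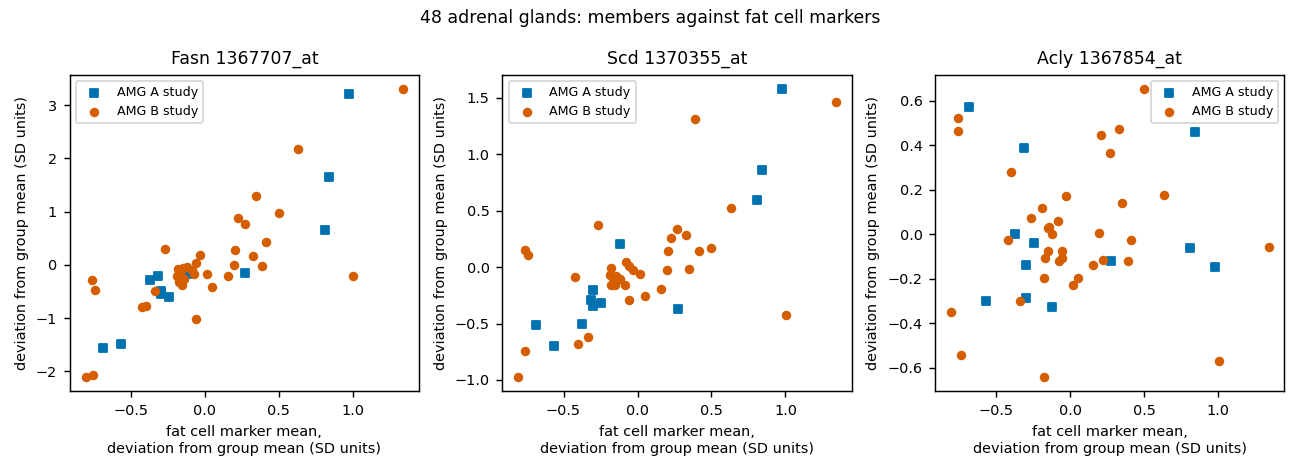
Deviation from the group mean of Fasn 1367707_at, Scd and Acly (vertical, SD units) against that of the fat cell marker mean (horizontal, SD units) in 48 adrenal glands; squares are the AMG A study and circles the AMG B study. Fasn (r = 0.824) and Scd (r = 0.709) follow the markers, and Acly (r = 0.0186) shows no such relation.

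In adrenal glands of the AMG A study on day 14, 0 members passed with limma at 3 or 30 mg/kg, where 0% of all probe sets did at either dose (at an unadjusted p under 0.05, 4 of 16 members and 5.8% of all probe sets did at 30 mg/kg). Fasn 1367708_a_at had 0.99, 1.06, 4.17 and 2.01 at 30 mg/kg, against -0.15, 2.37, 0.03 and -0.05 in controls (1.51, SE 0.679, limma adjusted p = 0.81). The fat cell marker mean was 0.194 to 1.86 at 30 mg/kg, against -0.167 to 0.973 in controls. Acly averaged 1.41 ± 0.389 in dosed and 0.796 ± 0.323 in control glands (SD, n = 4 each), which did not pass (0.617, SE 0.238, limma adjusted p = 0.74). In pancreas 0 members passed with limma at 3 or 30 mg/kg AMG A (0 at an unadjusted p under 0.05 at either dose), where 0.00322% of all probe sets were called at either dose.

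Both compounds were given at 3 mg/kg, and their effects on day 14 were compared there in 2 tissues. The AMG A effect minus the AMG B effect lay between -0.00930 and 0.600 over the 16 probe sets in the adrenal gland and between -0.446 and 0.982 in pancreas, with SEs up to 1.17. With limma 0 of 16 passed in either tissue (lowest adjusted p = 0.56, 0 at an unadjusted p under 0.05), where 0.00644% of all probe sets were called in the adrenal gland and 0% in pancreas. In the adrenal gland it was 0.0321 (95% interval -0.650 to 0.714) for Acly and 0.433 (95% interval -0.431 to 1.30) for Fads2, and in pancreas -0.168 (95% interval -2.14 to 1.80) for Scd and -0.161 (95% interval -0.736 to 0.415) for Fasn 1367708_a_at. The missed threshold does not show that the compounds act alike.

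In pancreas after 14 days of 60 mg/kg AMG B, Scd and 1 of 2 Fasn probe sets rose. Scd had 4.37, 0.20, -0.97 and 1.24 in dosed pancreas, against -0.92, -0.95, -0.94 and -0.87 in control pancreas. Fasn 1367708_a_at had 1.23, 0.33, 0.17 and 0.06 in dosed pancreas, against -0.40, -0.32, -0.14 and -0.38 in control pancreas. Scd was above all controls in 3 dosed animals and below them in animal 35, and for Fasn the groups did not overlap, with animal 33 highest for both genes. In all, 3 of 16 member probe sets did not overlap between groups, a share near the 17.9% of all probe sets.

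The difference for Scd was 2.13 (SE 0.667, limma adjusted p = 0.048), with means of 1.21 ± 2.29 in dosed and -0.921 ± 0.0344 in control pancreas (SD, n = 4 each). For Fasn 1367708_a_at it was 0.754 (SE 0.195, limma adjusted p = 0.019), with means of 0.447 ± 0.533 in dosed and -0.308 ± 0.119 in control pancreas (SD, n = 4 each). The SEs rest on 1 spread for each probe set over all pancreas groups, although the dosed and control SDs differed widely for both genes. The other Fasn probe set had 0.46, 0.52, -0.28 and -0.13 in dosed pancreas, against 0.33, 0.39, 0.22 and -0.09 in control pancreas, and did not pass (-0.0726, SE 0.204, limma adjusted p = 0.87). These were 2 of 16 member probe sets, beside 9.88% of all probe sets called, so the members' share was near the background. At 3 mg/kg 0 members passed with limma (1 at an unadjusted p under 0.05), where 0.0226% of all probe sets were called and 8.79% had an unadjusted p under 0.05. The Scd call ended when any of animals 25, 26, 27, 28, 33 and 36 was left out, and both calls ended when only the 8 compared arrays were fitted (adjusted p = 0.233 for Scd and 0.165 for Fasn).

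The Acaca probe sets had opposite signs in pancreas. Probe set 1387538_at had 0.26, 0.30, 0.21 and 2.62 in dosed pancreas, against 2.41, 2.62, 2.53 and 2.41 in control pancreas, so that 3 dosed animals were far below and animal 36 stood level with the highest control. Probe set 1370893_at had 1.52, -0.39, -0.15 and 0.10 in dosed pancreas, against -0.93, -1.07, 0.23 and -0.87 in control pancreas. The differences of -1.64 (SE 0.631, limma adjusted p = 0.10) and 0.929 (SE 0.376, limma adjusted p = 0.12) did not pass, and Acaca has no single direction here. Fads1 differed by 0.0126 (SE 0.127), Fads2 by -0.0770 (SE 0.147) and Elovl5 by -0.234 and 0.124, none past the threshold. Acly, Me1, Elovl6 and Srebf1 differed by between -0.168 and 0.324, none past the threshold either.

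**Figure D5:**
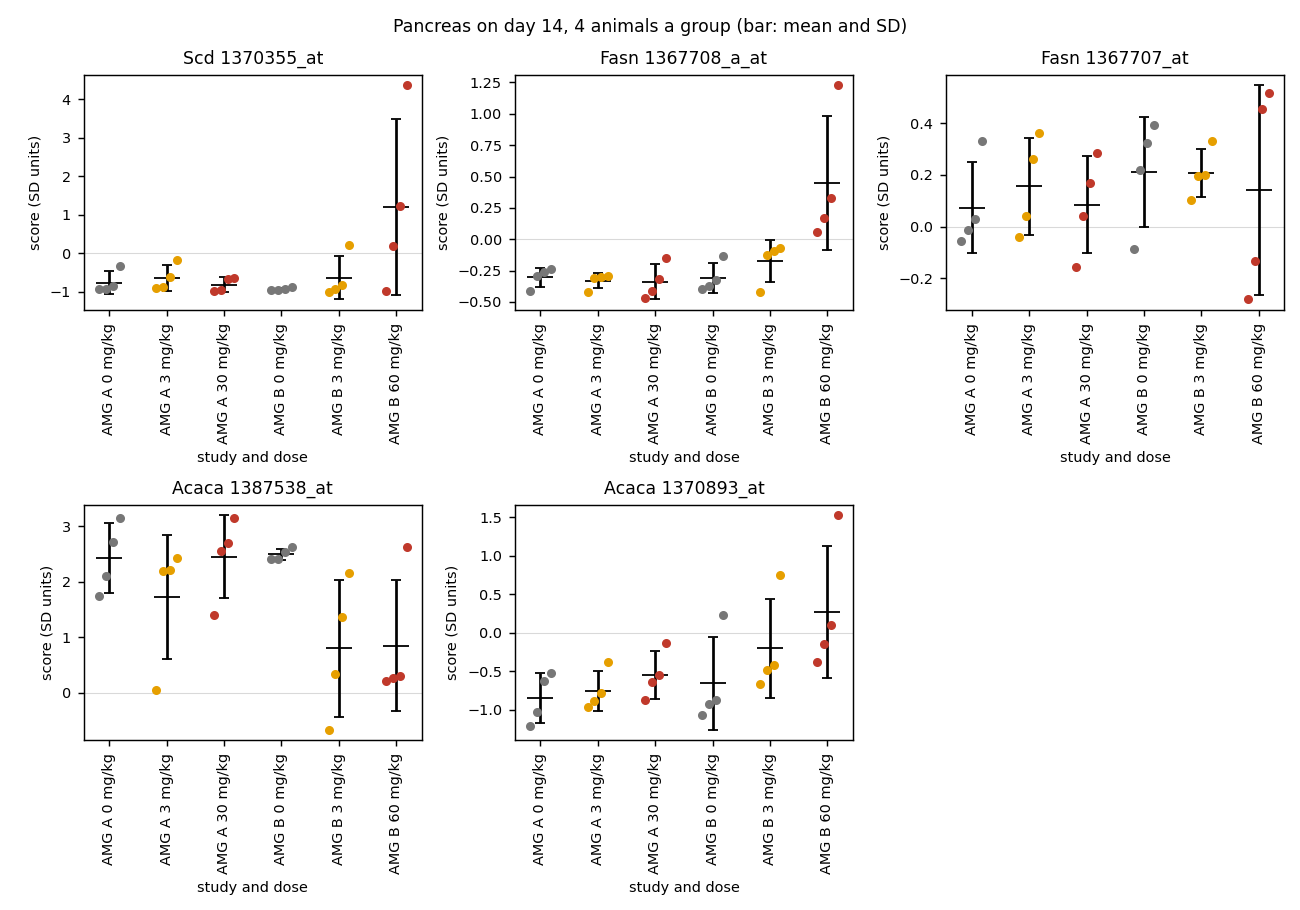
Scores (SD units) of Scd, both Fasn and both Acaca probe sets in each pancreas on day 14, by study and dose, with 4 animals a group; bars give the mean and SD. At 60 mg/kg AMG B, Scd is spread from -0.97 to 4.37, and 3 of 4 animals are low for Acaca 1387538_at.

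In the same pancreases all 9 acinar probe sets fell (median -1.08), and 0 of 11 fat cell probe sets passed with limma (lowest adjusted p = 0.51, 0 at an unadjusted p under 0.05). The fat cell marker mean ran from -0.0941 to 1.29 in dosed and from -0.00893 to 2.62 in control pancreas. Over the 24 pancreas arrays Scd did not follow it past the threshold (r = 0.351, permutation adjusted p = 0.14, and rho = 0.517, permutation adjusted p = 0.060). Of 16 member probe sets 1 passed by both measures, Srebf1 1388426_at (r = 0.520, rho = 0.625, permutation adjusted p = 0.018 and 0.0099). Elovl5 1388348_at passed by Pearson's r alone (r = 0.418, permutation adjusted p = 0.048 and, for rho, 0.077). The other probe sets of these 2 genes did not pass (r = 0.158 for Srebf1 and 0.278 for Elovl5). Of 10 endothelial probe sets 2 fell (median -0.501), of 6 islet probe sets 2 fell (median 0.105), and of 7 macrophage probe sets 0 passed with limma (2 at an unadjusted p under 0.05). The part of these cells in the member values was not tested. Of the 116 probe sets around the pathway 7 passed (6.03%), beside 9.88% of all probe sets. Of 31 regulator probe sets 1 fell, that of the coactivator Ppargc1b (-2.82, limma adjusted p = 0.0013), and 1 rose, that of Mbtps1 (0.807, limma adjusted p = 0.012). Of 15 carbon supply probe sets 1 rose, 1 of 2 of the cytosolic isocitrate dehydrogenase Idh1 (0.393, limma adjusted p = 0.024). Of 21 other elongation and desaturation probe sets 1 rose, 1 of 2 of the dehydratase Hacd3 (0.286, limma adjusted p = 0.037). Of 36 activation and esterification probe sets 2 rose and 1 fell. The phosphatidate phosphatase Lpin3 rose (1.92, limma adjusted p = 0.0038). Of the 6 probe sets of the acyltransferase Agpat3, 1 rose (0.560), 1 fell (-2.49) and the others did not pass. Of 13 probe sets of sterol genes 0 passed with limma (1 at an unadjusted p under 0.05).

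The effects of 60 mg/kg AMG B on day 14 were then compared between tissues of the same animals. The liver effect was below the pancreas effect for Fads1 (-1.08, SE 0.293, limma adjusted p = 0.018), Fads2 (-1.30, SE 0.410, limma adjusted p = 0.041) and Elovl5 1388348_at (-1.35, SE 0.436, limma adjusted p = 0.048). For Acaca 1387538_at it was above (1.81, SE 0.585, limma adjusted p = 0.048), with effects of 0.162 in liver and -1.64 in pancreas. These 4 of 16 stood beside 9.31% of all probe sets. The Fads1 difference ended when animal 25 or 36 was left out, and each of the other 3 held in 1 of 8 such fits. In controls Fads1, Fads2 and Elovl5 1388348_at scored higher in liver than in pancreas, by 1.41, 2.15 and 2.53. Their effects in pancreas were 0.0126, -0.0770 and 0.124. Whether low pancreas levels left little room for a fall there was not tested. Between liver and adrenal gland 0 of 16 effects differed with limma (lowest adjusted p = 0.072, 1.04% of all probe sets called), so the Fads2 effects there are not shown to differ. An unadjusted p under 0.05 was found there for 6 of 16 members and 8.84% of all probe sets. Between adrenal gland and pancreas 0 differed either (lowest adjusted p = 0.058, 9.55% called), and 5 of 16 members and 24.6% of all probe sets had an unadjusted p under 0.05.

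Levels in undosed animals were compared between tissues. In day 14 controls of the AMG B study the mean Fads1 score was 1.22 ± 0.0517 in the adrenal gland, -0.0436 ± 0.150 in liver and -1.45 ± 0.118 in pancreas (SD, n = 4 each), and each step passed with limma. Fads2 had the same order, at 1.20 ± 0.565, 0.459 ± 0.502 and -1.69 ± 0.0798 (adrenal above liver with limma adjusted p = 0.039, a call that ended without animal 25, 27 or 28). Elovl5 and Srebf1 were higher in liver than in the other tissues on both probe sets. Me1 and Elovl6 were higher in the adrenal gland than elsewhere, and their liver and pancreas means did not differ past the threshold.

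Acly was higher in the adrenal gland (0.796 ± 0.101) and in pancreas (0.431 ± 0.348) than in liver (-0.823 ± 0.113), and the first pair did not differ past the threshold. Acaca 1387538_at was highest in pancreas (2.49 ± 0.103), whereas 1370893_at had its lowest mean there, and no pair of tissues differed past the threshold for Scd. Fasn 1367708_a_at was lower in liver than in the adrenal gland (-0.763, SE 0.291, limma adjusted p = 0.033), with means of -0.549 ± 0.119 in liver, 0.214 ± 0.433 in the adrenal gland and -0.308 ± 0.119 in pancreas (SD, n = 4 each), a call that ended without any of animals 25, 26, 27 and 28. Fasn 1367707_at was lower in liver than in pancreas (-0.663, SE 0.233, limma adjusted p = 0.017), with means of -0.450 ± 0.134, -0.0987 ± 0.296 and 0.213 ± 0.213 in the same order, a call that ended without animal 25 or 26. In all, 12 of 16 probe sets differed for liver minus adrenal, 9 for liver minus pancreas and 9 for adrenal minus pancreas, beside 43.6%, 54.2% and 57.6% of all probe sets.

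Some pairs of members varied together from animal to animal within liver. After group means were taken away, 16 of 105 pairs of member probe sets in the AMG A study and 12 of 120 in the AMG B study were positively correlated over 36 arrays by Pearson's r (permutation, adjusted p under 0.05), and 0 negatively. By both Pearson's r and Spearman's rho 13 and 7 pairs passed. Of these, 3 and 4 were pairs of 1 gene and 10 of 100 and 3 of 114 were pairs between genes. The median r over the pairs was 0.171 in the AMG A study and 0.198 in the AMG B study. Among all pairs of probe sets, 1.82% in the AMG A study had an r of at least 0.431 and 0.355% in the AMG B study an r of at least 0.554, the lowest among the pairs called by Pearson's r. The Srebf1 probe sets gave r = 0.976 and 0.962. Between genes, Fasn 1367708_a_at and Acly gave r = 0.662 and rho = 0.621 (permutation adjusted p = 0.0094 and 0.013) in the AMG A study. In the AMG B study they gave r = 0.908 and rho = 0.839 (permutation adjusted p = 0.0003 for each). Without the 2 arrays farthest from the median, r was 0.578 and 0.753. Fads1 and Fads2 gave r = 0.631 and rho = 0.566 (permutation adjusted p = 0.023 and 0.029) in the AMG A study. In the AMG B study they gave r = 0.549 and rho = 0.376 (permutation adjusted p = 0.12 and 0.28). Values of 1 array share its RNA and scaling.

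The genes whose pattern over the 36 livers of the AMG B study was most like the mean of the 10 members, among all other named genes and as a description with no test, were Vkorc1 of vitamin K recycling (Pearson r = 0.847), the liver pyruvate kinase Pklr (r = 0.842), the urea cycle gene Otc (r = 0.830), the esterase gene Aadac (r = 0.793) and the citrate carrier Slc25a1 (r = 0.782). These arrays share tissue, days and doses.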

How the data were processed

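RNA was extracted from liver, adrenal gland and pancreas with Qiagen kits and labelled from 5 µg of total RNA for Affymetrix arrays, per the labels' protocols. The deposited values are scores: the authors' tables hold each probe set centred near 0 and scaled to an SD near 1 over the deposited arrays of both tables, as the values themselves show; how probe signals were scanned and summarised is not given in the sources used here. Probe sets were named from the platform annotation. The 10 genes and the lists were chosen with earlier results of these data known, and their probe sets were then taken by symbol alone. Scores were fitted with limma 3.58.1 (R 4.3.3; lmFit, contrasts, eBayes with trend) over all probe sets, in 1 model each for AMG A livers, AMG B livers, all adrenal glands, all pancreas samples and the AMG B day 14 arrays of all tissues (for contrasts between tissues), with Benjamini-Hochberg adjustment within each of 47 contrasts and a threshold of 0.05. The script was tested on simulated data. Every member is accounted for; animals' values are given for members that passed or had the widest differences. Correlations used 100000 permutations within groups. Each model takes 1 spread for each probe set over all its groups, although the SDs of some compared groups differed widely. The number of arrays limits precision. Where tissues came from 1 animal, scores of the same animal in liver and adrenal gland, after group means were taken away, had a median correlation of 0.0495, against -0.00197 for different animals.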

Additional observations from a re-analysis of the deposited data

Results flagged for a closer look

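Of 44 sets of 4 scores (1 probe set in 1 group) examined, 4 held an animal far from the other 3 by Dixon's criterion. Chance gives about 1 in 20 for sets not chosen by their values, but these were chosen because the members passed or had wide differences, and animals recur among them. Acly was 0.14 in the liver of animal 23 at 60 mg/kg AMG B on day 4, where the others lay between -0.73 and -0.59. Fasn 1367708_a_at was 2.37 in the adrenal gland of control animal 3010 of the AMG A study, where the others lay between -0.15 and 0.03. Acaca 1387538_at was 2.62 in the pancreas of animal 36 at 60 mg/kg AMG B, where the others lay between 0.21 and 0.30. Acaca 1370893_at was 0.23 in the pancreas of control animal 27 of the AMG B study, where the others lay between -1.07 and -0.87.

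The same contrast gave different effects in 5 cases by limma's test of the difference itself. For Acly in the adrenal gland at 60 mg/kg AMG B the day 14 effect exceeded the day 1 effect by 1.35 (SE 0.337, limma adjusted p = 0.034), where 1.16% of all probe sets were called, and 0 to 1 members were with 1 animal left out. On day 14 at 60 mg/kg AMG B the liver effect minus the pancreas effect was 1.81 for Acaca 1387538_at, -1.35 for Elovl5 1388348_at, -1.08 for Fads1 and -1.30 for Fads2 (limma adjusted p = 0.048, 0.048, 0.018 and 0.041). Over all probe sets 9.31% were called there, and with 1 animal left out 0 to 2 members were. In controls the Elovl5, Fads1 and Fads2 probe sets scored lower in pancreas than in liver, and the part of this in the differences was not tested.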

How the results depend on the processing

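No member call changed direction in the alternatives run. Of 132 values of single calls under other settings 113 stayed past the threshold and 19 did not, and of 248 with 1 animal left out 182 stayed and 66 did not. These totals mix calls between tissues of controls, most of which held, with calls for dosed animals, of which a smaller share held. Fitting only the compared groups left 1 call in liver at 60 mg/kg AMG B on day 14, and 0 for 60 against 3 mg/kg there. It left 0 in the adrenal gland (against controls, against 3 mg/kg and between days 14 and 1) and 0 in pancreas. Such a fit has fewer arrays to estimate the spread, and no longer takes in the spread of the other groups. Which of these ended the calls was not tested. Quantile normalization left 1 call for 60 against 3 mg/kg in liver and 1 for the liver minus pancreas effects, and gave 2 for the liver minus adrenal effects. Array weights left 1 call in the adrenal gland and 1 in pancreas, and in pancreas leaving out the mean-variance trend or averaging a gene's probe sets left 1; the cause was not tested. With the animal as a replicate block, the liver minus adrenal, liver minus pancreas and adrenal minus pancreas comparisons gave 12, 9 and 9 calls in controls and 0, 4 and 0 for the effects, the same counts as without it.

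With 1 animal left out the counts ran from 3 to 4 in liver at 60 mg/kg AMG B on day 14, 0 to 2 against 3 mg/kg, 0 to 2 between days 14 and 1, 0 to 1 in the adrenal gland on day 4, 1 to 2 there on day 14, 0 to 1 there between days, 1 to 2 in pancreas, 0 to 1 in pancreas against 3 mg/kg, 0 to 1, 0 to 2 and 0 to 1 for the liver minus adrenal, liver minus pancreas and adrenal minus pancreas effects, and 9 to 11, 8 to 9 and 8 to 9 for the controls. Groups of 4 limit what can pass, and without a linear or log signal no fold change can be given.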
